A study of Mus musculus with 14 samples.

Results

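The comparison set Morrbid-/- against wild-type CD8 T cells that had been activated in the presence of IFN-beta. It rested on 8 of the 14 sequenced libraries, 4 of each genotype, taken by their titles from the deposited table of cells stimulated with IFN-beta. The other 6 libraries, 3 wild type and 3 Morrbid-/-, came from cells stimulated without IFN-beta and were used here only for the difference between stimulations. All cells were sorted from C57BL/6 spleens as naive CD8 T cells, with high CD62L and low CD44. They were cultured for 6 h with 1 µg/mL anti-CD3 on the plate and 1 µg/mL soluble anti-CD28, and the 8 libraries of the comparison also received 20 ng/mL recombinant IFN-beta1. The labels state neither which part of Morrbid is deleted, nor the age of the mice, nor whether replicates came from separate animals. All p-values therefore measure only the spread between these libraries, which may be technical.

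Morrbid is a long noncoding RNA transcribed near Bcl2l11, the gene of the pro-apoptotic protein BIM, and it is known for limiting Bcl2l11 expression in short-lived myeloid cells. Antibodies against CD3 and CD28 stand in for antigen and costimulation, and drive the NF-kB, AP-1 and NFAT transcription factors of early T cell activation. IFN-beta is a type I interferon. It signals through its receptor, receptor-bound JAK kinases and transcription factors that bind interferon-stimulated response elements, and in CD8 T cells it acts as an inflammatory signal beside antigen and costimulation.

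Recovered reads per library ranged from 5788070 to 6918633 in wild type and from 7132515 to 7355337 in Morrbid-/-, so every Morrbid-/- library was deeper than every wild-type one. The part of depth in the results was not tested. Mitochondrial 16S rRNA took 9.05% to 10.5% of the reads in Morrbid-/- and 9.45% or more in wild type. The level of Morrbid was not analysed here in the IFN-beta libraries, which leaves their genotype labels unchecked by it. In the libraries without IFN-beta, Morrbid (listed as Gm14005) held 2, 4 and 2 reads in wild type and 7, 4 and 7 reads in those labelled Morrbid-/-. Those few reads did not show a loss, and genotypes below are those of the labels. The labelled cell type was checked against 10 markers of CD8 T cells, such as Cd8a, Cd8b1 and Cd3e. All 10 were tested and limma called 0 of them between genotypes (1 with an unadjusted p under 0.05, 0 by edgeR and 0 by DESeq2), and their summed level was 11277 to 12488 in wild type and 10701 to 12326 in Morrbid-/-.

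Markers of other cells were mostly low, with exceptions that moved with genotype. Of 8 B cell markers 4 were analysed here, with a sum of 508 to 572 in wild type and 391 to 422 in Morrbid-/-. Nearly all of it was Ighm, which was lower in Morrbid-/- (log2 change -0.44), while Cd79a stood at 5.84 to 27.5. The low Cd79a and Cd74, not called, had higher means in Morrbid-/-. Cd79a went from 11.6 to 16.9 and Cd74 from 8.28 to 12.8. Of 8 macrophage and monocyte markers 2 were analysed here, and the highest, Cd68, ranged from 13.3 to 34.1. Among dendritic cell markers 2 of 7 were analysed here. Zbtb46 was higher in Morrbid-/- (mean 14.5 against 47.2) and Itgax was at 0 to 1.18. NK cell markers, 5 of 8, gave 1237 to 1426 in wild type and 1385 to 1796 in Morrbid-/-, mostly Eomes, a transcription factor gene that CD8 T cells also use, with 0 members called (1 with an unadjusted p under 0.05, 0 by edgeR and 0 by DESeq2). The neutrophil list and the red cell and platelet list had 0 members analysed here. Markers of CD4 and regulatory T cells, 5 of 7, gave 1374 to 1689 and 1399 to 1883, with Foxp3 at 2.05 to 9.16 while Ikzf2 (0.28) and Ctla4 (0.93) were higher. The mean of Il2ra, not called, went the other way, from 766 in wild type to 653 in Morrbid-/-. Memory-phenotype CD8 markers, all 9 of them, gave 2346 to 2517 in wild type and 2906 to 3343 in Morrbid-/-. Of 7 tested members 3 were higher, where 5.25% of all genes were. Most of the sum was Eomes, not called (mean 1322 in wild type and 1544 in Morrbid-/-), and Ly6a (588 and 962), also an interferon-response gene. The mean of Nkg7, not called, went the other way, from 21.4 to 15.9. The part of such cells in the results was not tested. In bulk RNA, fewer cells of a type and less RNA per cell cannot be told apart.

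In the presence of IFN-beta, many genes differed between the genotypes by small amounts and in nearly equal numbers each way. Of 9964 genes tested, 523 were higher in Morrbid-/- (5.25%) and 482 were lower (4.84%), which together made 10.1% of the genes. A gene is called here when its Benjamini-Hochberg adjusted p from limma is under 0.05. The median absolute log2 change of the called genes was 0.37, and 406 of the higher and 406 of the lower genes changed by less than 1.5-fold. Over 2-fold there were 31 higher and 21 lower genes. Bringing every library to the same total gave 730 higher and 344 lower genes. Higher genes then made up 68% of the calls, against 52% in the values as deposited, and the median log2 change over all tested genes moved by 0.04. Without Morrbid-/- replicate 2 the counts were 321 higher and 288 lower, and without the mean-variance trend of limma they were 171 and 134. Of the 155 called genes named by the rule of this comparison, 78 kept their call in every alternative. The calls of Junb, Jun, Irf7, Ube2l6, H2-K1, Smarca4, Cblb, Ripk1, Sesn3, Skap1, Txk, Mcm4, Hif1a, Rplp2, Rnf157, Ubald2 and Scoc, all described below, were among those lost when the trend was left out. Rescaling to equal totals ended the calls of Tmem87b, Bnip3l, Irf1, Il6st, Cd48, Tap1 and Psme2.

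The share of genes called grew with the level of the gene. It was 3.05% among genes with a mean normalized count of 10 to 50, with a median absolute log2 change of 0.96 among the called. It reached 6.81% for means of 50 to 200, 13.9% for 200 to 1000 and 26.2% above 1000, where the median change of called genes was 0.27. The list shares below are set against genes of all levels, and a comparison at like levels was not made. In 1512 genes, 15.2% of those tested, no library of one genotype reached into the range of the other, with Morrbid-/- above wild type in 755 and below in 757. Among the called genes, 151 had overlapping groups. Protein-coding genes made up 954 of the calls out of 9301 tested, against 13 of 247 long noncoding RNAs and 10 of 85 pseudogenes.

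**Figure D1:**
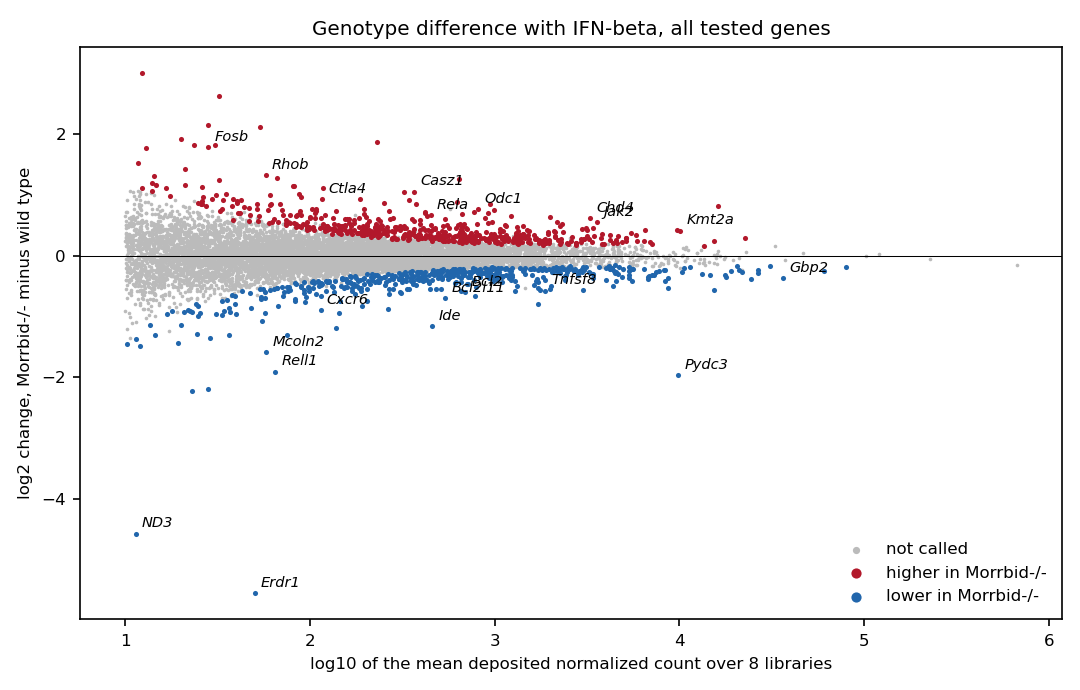
Each point is 1 of 9964 tested genes, with the log10 of its mean deposited normalized count over 8 libraries on the x axis and its log2 change (Morrbid-/- minus wild type) on the y axis. Red points were called higher (523), blue points lower (482) and grey points not called. Called genes at high levels lie close to 0, and Pydc3, Rell1, Erdr1 and ND3 stand far below it.

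Genes near Morrbid were read first. Bcl2l11 (chromosome 2, 128126038 to 128162547 in GRCm38.p6) held 746, 687, 668 and 560.5 in wild type and 482, 419.8, 404 and 340.3 in Morrbid-/-. Every Morrbid-/- library lay below every wild-type library, and the mean with its SD went from 665 ± 77.3 to 412 ± 58.2 (n = 4 in both genotypes), which on the log2 scale is -0.69 (SE 0.10; adjusted p = 3.14e-05). Of 17 genes listed around Morrbid on chromosome 2, 12 were in the table and 10 were tested. Of these, 2 were called, both lower, where 4.84% of all genes were lower. The median change of the 10 was -0.04 against 0.00 over all tested genes. Tmem87b, which encodes a Golgi membrane protein, held 569, 570.4, 587 and 505 in wild type and 464, 465, 485 and 478 in Morrbid-/-. It was called at -0.24 (SE 0.07; adjusted p = 0.0398), a call lost without any of 7 single libraries, so that the list had 1 lower member without any of 6 of them. Anapc1, for a subunit of the anaphase-promoting complex, showed nearly the same mean in both genotypes (967 ± 34.0 to 967 ± 97.3). Values of the others that did not pass were -0.83 for Acoxl, -0.38 for Polr1b, 0.20 for Slc20a1, 0.19 for Zc3h6, 0.31 for Ttl, -0.08 for Chchd5 and -0.01 for Zc3h8, and the groups overlapped in all of these but Zc3h6.

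The BCL2 family sets the threshold of mitochondrial apoptosis, with BH3-only proteins such as BIM opposed by guardians such as BCL2. Of 16 members tested, 3 were called, all lower in Morrbid-/- (1 was higher without wild-type replicate 1), or 18.8% where 10.1% of all genes were called and 4.84% lower. They were the pro-apoptotic Bcl2l11, the anti-apoptotic Bcl2 and the mitophagy receptor gene Bnip3l. Bcl2 (chromosome 1, 106538176 to 106714290) held 728, 868, 975 and 780.2 in wild type and 575, 586, 519 and 515 in Morrbid-/-, with no overlap and a log2 change of -0.60 (SE 0.08; adjusted p = 2.8e-05). Thus a killer and a guardian of the family were lower in the same 4 libraries. Bnip3l went from 900.1 ± 28.9 to 776 ± 60.1 (-0.22, SE 0.07; adjusted p = 0.0441), a call lost without any of 6 single libraries.

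Death receptors and caspases moved in both directions. Of 23 tested, 3 were higher (1 without wild-type replicate 1 or without Morrbid-/- replicate 2) and 4 lower. Together that is 30.4%, where 10.1% of all genes were called. Casp8, the initiator caspase of death receptors, held 5125, 5076, 5185 and 5158 in wild type and 4238, 4066, 4092 and 4214 in Morrbid-/-. Its replicates were close to each other, and the difference of -0.31 (SE 0.05; adjusted p = 0.000197) was larger than their spread. Casp2, a caspase of the DNA damage response, held 687, 703, 728 and 695 in wild type and 498, 492, 542 and 514 in Morrbid-/-, a change of -0.46 (SE 0.07; adjusted p = 7.7e-05). The kinase gene Ripk1 went from 1873 ± 113 to 1584 ± 87.0 (-0.24) and the death ligand gene Tnfsf10, for TRAIL, from 1298 ± 75.7 to 1096 ± 44.1 (-0.24, lost without wild-type replicate 2 or Morrbid-/- replicate 3). The inflammatory caspase gene Casp4 rose instead, with 30.7, 38.9, 38.5 and 39.1 in wild type and 76.1, 55.9, 71.0 and 65.7 in Morrbid-/- and a log2 change of 0.85 (SE 0.17; adjusted p = 0.00215). Its neighbour Casp1 (0.70) and the death receptor gene Fas (0.28) were also called higher, but Casp1 was lost without any of 6 single libraries and Fas without any of 4.

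**Figure D2:**
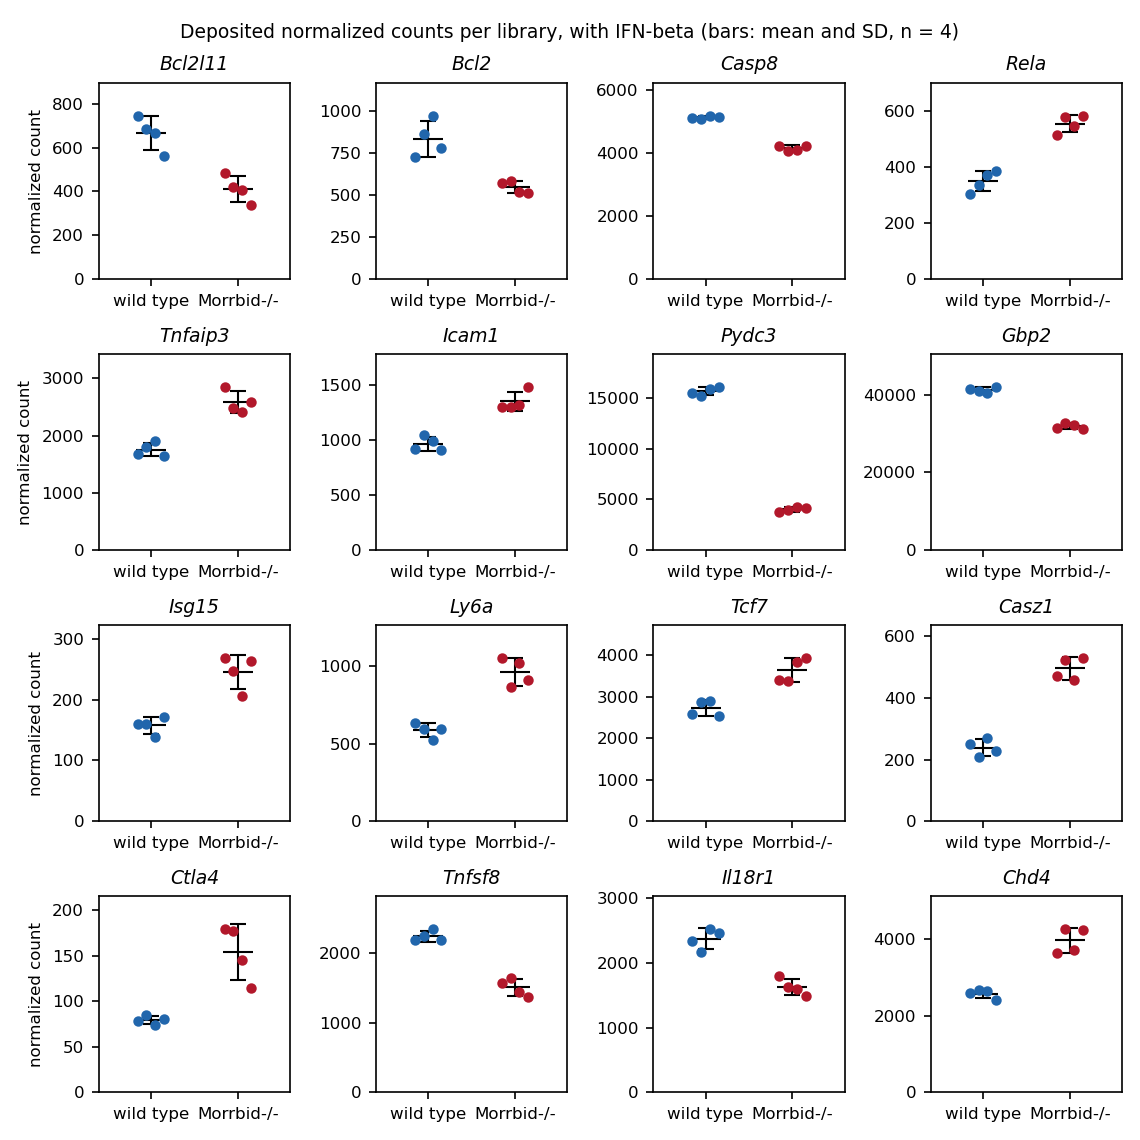
Each panel shows the deposited normalized count of 1 gene in the 4 wild-type (blue) and 4 Morrbid-/- (red) libraries with IFN-beta, with bars for the mean and SD and axes that start at 0. The genotypes do not overlap in these 16 genes, which were picked among the called genes, and Pydc3 shows the widest gap relative to its level.

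NF-kB is a family of dimeric transcription factors that antigen receptor and CD28 signals release from inhibitors, and it drives the genes of those same inhibitors. Of the 43 members tested, 17 were higher in Morrbid-/- and 3 lower. Together these made 46.5% of the list, where 10.1% of all genes were called. The median log2 change of the list was 0.22 against 0.00 over all tested genes. The count of lower members was 1 without wild-type replicate 2 or without Morrbid-/- replicate 3. The gene list was written with earlier results of these data known.

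Among the subunits 4 of 5 were higher. Rela (chromosome 19, 5637442 to 5648134), which encodes the transactivating subunit p65, held 303, 336, 370.2 and 387 in wild type and 513, 576, 545 and 582 in Morrbid-/-, a log2 change of 0.67 (SE 0.08; adjusted p = 1.04e-05). Nfkb1, the gene of p105 and p50, held 1245, 1278, 1381 and 1243 in wild type and 1754, 1834, 1630.1 and 1639 in Morrbid-/- and changed by 0.41 (SE 0.06; adjusted p = 7.7e-05). No Morrbid-/- library of either gene fell to the level of any wild-type library. Kinases and adaptors had 2 of 11 higher, one of them Map3k14, the gene of the NF-kB-inducing kinase of the noncanonical pathway, with 366, 406, 439 and 399 in wild type and 536, 597, 528 and 536 in Morrbid-/- and a change of 0.45 (SE 0.08; adjusted p = 0.000403).

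Inhibitors of the pathway had 5 of 11 higher. Tnfaip3 (chromosome 10, 19000910 to 19015410), the gene of the ubiquitin-editing inhibitor A20, held 1680.3, 1805, 1902 and 1640.4 in wild type and 2852, 2479, 2412 and 2584 in Morrbid-/-, a change of 0.55 (SE 0.06; adjusted p = 3.36e-06). Tnip1 (chromosome 11, 54910787 to 54962956), which encodes a partner of A20, held 1179, 1302, 1281 and 1251 in wild type and 1486, 1622, 1621 and 1691 in Morrbid-/- and changed by 0.36 (SE 0.06; adjusted p = 0.00036). Some activators and some inhibitors of the pathway were thus higher in the same libraries. Of the kinases and adaptors 9 of 11 were not called (median change 0.004), nor were 6 of 11 inhibitors. Of 16 targets 6 were higher and 3 lower. Icam1, an adhesion molecule gene, held 918, 1046, 990.2 and 907 in wild type and 1306, 1299.6, 1320.1 and 1486 in Morrbid-/-, with a change of 0.49 (SE 0.07; adjusted p = 2.8e-05), and 1 Morrbid-/- library stood apart at the top. Plek, for the signalling protein pleckstrin, fell, with 70.8, 67.6, 59.6 and 69.3 in wild type and 34.8, 44.0, 49.4 and 38.3 in Morrbid-/- and -0.68 (SE 0.17; adjusted p = 0.0103). Tnfaip8 (-0.45) and Irf1 (-0.19) were the other lower targets, lost without any of 5 and any of 4 single libraries. Hivep1, whose zinc-finger product binds kappaB-like sites, lay outside the list and rose as well, from 1569 ± 46.3 to 2438 ± 122 (0.63, SE 0.06; adjusted p = 1.03e-07).

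Promoters of 3 of these higher genes are shown. They had the smallest p among the higher members whose promoter in the table holds a simplified pattern of the kappaB site. NF-kB dimers bind kappaB sites. The lower member Irf1 also held the pattern, 13 bases before its start on the opposite strand, and is not printed. The motif searched was GGGA, then any 4 bases, then CC, on both strands, which occurs in 20.5% of the 27025 promoters of the RefSeq promoter table (GRCm38.p6), taken from 250 bases before to 50 after the start of each gene. Capitals mark the motif in the 250 bases before the start, written 5′ to 3′ on the strand of the gene.
Tnfaip3 (chr10:19015411-19015660, minus strand): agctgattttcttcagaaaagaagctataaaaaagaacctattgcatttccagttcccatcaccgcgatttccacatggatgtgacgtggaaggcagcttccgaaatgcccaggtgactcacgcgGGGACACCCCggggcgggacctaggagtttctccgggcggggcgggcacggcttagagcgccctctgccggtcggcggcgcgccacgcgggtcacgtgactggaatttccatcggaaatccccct
Rela (chr19:5637291-5637540, plus strand): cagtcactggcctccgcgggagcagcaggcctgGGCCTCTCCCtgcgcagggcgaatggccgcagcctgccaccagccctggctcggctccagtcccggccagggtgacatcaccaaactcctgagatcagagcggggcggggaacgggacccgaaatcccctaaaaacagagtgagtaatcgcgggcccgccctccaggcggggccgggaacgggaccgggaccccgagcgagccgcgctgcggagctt
Tnip1 (chr11:54962941-54963190, minus strand): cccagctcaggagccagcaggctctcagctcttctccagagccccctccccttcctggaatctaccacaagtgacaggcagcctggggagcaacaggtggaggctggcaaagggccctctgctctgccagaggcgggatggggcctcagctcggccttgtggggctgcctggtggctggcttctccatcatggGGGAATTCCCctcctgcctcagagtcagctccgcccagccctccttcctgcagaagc
The match lay 125 bases before the start in Tnfaip3, with another in the bases after the start that are not printed. It lay 217 bases before the start in Rela, on the opposite strand, and 57 bases before it in Tnip1, where the motif reads the same on both strands. The start is the one the promoter table gives, which in Rela and Tnip1 lies inside the span of the gene given above. A match describes the letters and shows no binding. Stretches that depart from these letters are not marked, even where they resemble a kappaB site. Of the 43 tested members 34 had a promoter in the table, under the 80% set for a count over a list, so such a count is void and is not given.

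AP-1, EGR, NR4A and NFAT factors are induced within hours of antigen receptor signals. Of 32 tested, 7 were called, all higher in Morrbid-/- (4 without Morrbid-/- replicate 2 and 11 without Morrbid-/- replicate 4), or 21.9% where 10.1% of all genes were called and 5.25% higher. Lower members appeared when libraries were left out (1 without wild-type replicate 3, wild-type replicate 4 or Morrbid-/- replicate 2, and 2 without Morrbid-/- replicate 1). The list median was 0.20. Junb, an AP-1 subunit gene, held 348, 371, 325 and 466 in wild type and 566, 539, 481 and 529 in Morrbid-/- and rose by 0.50 (SE 0.09; adjusted p = 0.00109). Jun went from 1384 ± 101 to 1679.9 ± 125 (0.28, SE 0.07; adjusted p = 0.00808), and Fosb, low in every library, held 2.36, 24.6, 9.34 and 22.5 in wild type and 61.4, 42.2, 31.5 and 31.9 in Morrbid-/- (1.78, not called by DESeq2). Bhlhe40, a basic helix-loop-helix repressor gene of activated T cells, held 51.9, 35.8, 25.7 and 41.0 in wild type and 123, 96.2, 82.7 and 73.9 in Morrbid-/-, a change of 1.28 (SE 0.20; adjusted p = 0.000118). The orphan nuclear receptor gene Nr4a2 (0.49) and the immediate early gene Ier5 (0.27) were called too, Nr4a2 not without Morrbid-/- replicate 2 and Ier5 not without either of 2 libraries.

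Transcription factors of T cell differentiation were higher where they were called. Of 37 tested, 10 were called, all higher (6 without Morrbid-/- replicate 1), or 27% where 5.25% of all genes were higher. The list median was 0.15. Without wild-type replicate 3 or Morrbid-/- replicate 1 or 2 there was also 1 lower member. The called genes came from both arms of the list, 4 of 14 effector-linked and 6 of 23 naive and memory-linked factors. Casz1 (chromosome 4, 148804366 to 148954893), a zinc-finger factor gene of the effector arm, held 249, 208, 269.8 and 228 in wild type and 472, 522, 456 and 529 in Morrbid-/-, with a log2 change of 1.05 (SE 0.09; adjusted p = 5.25e-08). Tcf7, which encodes TCF1 of naive and stem-like memory cells, held 2590.1, 2876, 2904 and 2525 in wild type and 3401, 3369.9, 3826 and 3929.9 in Morrbid-/- and changed by 0.41 (SE 0.06; adjusted p = 0.000105). Its partner Lef1 held 1733, 1873, 1875 and 2115 in wild type and 2549, 2677, 2429.9 and 3294 in Morrbid-/-, a change of 0.52 (SE 0.08; adjusted p = 7.59e-05). Neither gene overlapped between genotypes. Myb, a factor gene of memory T cell maintenance, went from 758 ± 44.2 to 1094 ± 81.6 (0.53, SE 0.07; adjusted p = 1.74e-05), and Hif1a, the oxygen-sensing factor gene, from 2763 ± 115 to 3338 ± 261 (0.27). Klf2, which maintains homing genes of naive cells, was called at 0.25 with overlapping groups, and not without any of 5 single libraries.

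Coinhibitory and costimulatory receptors had 3 of 20 higher (1 without Morrbid-/- replicate 2) and 1 lower. That is 20% of the list, where 10.1% of all genes were called. Ctla4, the inhibitory receptor gene that competes with CD28, held 79.1, 85.0, 73.6 and 81.0 in wild type and 179.6, 178, 146 and 115 in Morrbid-/-, a log2 change of 0.93 (SE 0.14; adjusted p = 7.98e-05). All wild-type libraries lay within a narrow range, and those of Morrbid-/- spread more widely above them. Ctla4 also stands in the list of regulatory T cell markers, whose defining gene Foxp3 did not exceed 9.16 in any library. Lag3, another inhibitory receptor gene, was low, with 18.9, 15.4, 19.9 and 18.6 in wild type and 37.6, 34.8, 28.8 and 32.8 in Morrbid-/- and a change of 0.85, lost without Morrbid-/- replicate 1 or 2. Tnfsf8, the gene of the ligand of CD30, fell: it held 2186, 2242, 2341 and 2179 in wild type and 1568, 1642, 1436 and 1374 in Morrbid-/-, a change of -0.57 (SE 0.06; adjusted p = 1.39e-06). Tnfrsf18, for the costimulatory receptor GITR, was called at 0.47, but not by edgeR or DESeq2 nor without any of 5 single libraries.

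Of the T cell receptor signalling genes, 3 of 41 were higher (1 without wild-type replicate 1 or without Morrbid-/- replicate 2) and 2 lower, a share of 12.2% near the 10.1% of all genes. Limma called 0 of the 10 receptor chains and coreceptors tested (2 with an unadjusted p under 0.05, 0 by edgeR and 0 by DESeq2). Cblb, a ubiquitin ligase gene that restrains activation, went from 2659.5 ± 168 to 3199 ± 169 (0.27, SE 0.06; adjusted p = 0.0043). The adaptor gene Skap1 fell from 1119 ± 88.1 to 859.6 ± 94.9 (-0.38, SE 0.08; adjusted p = 0.00183) and the kinase gene Txk from 992 ± 49.9 to 829.7 ± 39.4 (-0.26, SE 0.07; adjusted p = 0.0119). Effector cytokines and cytotoxic molecules had 0 of 19 called by limma (8 with an unadjusted p under 0.05, 0 by edgeR and 0 by DESeq2). The closest were Lta, the lymphotoxin gene, from 39.1 ± 4.40 to 56.5 ± 3.09 (0.52, SE 0.17; adjusted p = 0.0519), and Serpinb6b, for a granzyme inhibitor, from 34.1 ± 7.96 to 51.7 ± 9.55 (0.60, SE 0.20; adjusted p = 0.0629). The list had 1 higher member without wild-type replicate 3 or Morrbid-/- replicate 4 and 2 without wild-type replicate 4.

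Cytokine receptor genes had 1 of 18 higher and 4 lower. They stood within a list of 34 that gave 3 higher (1 without wild-type replicate 1, wild-type replicate 2 or Morrbid-/- replicate 4). That list had 4 lower (2 without wild-type replicate 1). Its called share was 20.6%, where 10.1% of all genes were called. Il18r1, a chain of the interleukin-18 receptor, held 2342, 2164, 2525 and 2468 in wild type and 1792, 1634, 1594 and 1488 in Morrbid-/-, a change of -0.55 (SE 0.06; adjusted p = 5.02e-06). Il10ra, of the interleukin-10 receptor, held 368, 361, 374 and 417 in wild type and 236, 265, 247 and 239 in Morrbid-/- and changed by -0.62 (SE 0.08; adjusted p = 2.66e-05). The shared chain Il6st (-0.25) and Il6ra (-0.32) were also lower, lost without any of 4 and any of 3 single libraries. In the other direction Tgfbr2, the receptor gene of the cytokine TGF-beta, which restrains T cells, held 1231, 1344, 1270.5 and 1312 in wild type and 1616, 1602, 1540.2 and 1597 in Morrbid-/- (0.30, SE 0.06; adjusted p = 0.00121).

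Homing, adhesion and egress genes split evenly. Of 29 tested, 4 were higher (2 without wild-type replicate 1 or 2 or Morrbid-/- replicate 1, 2 or 3). Another 4 were lower (1 without wild-type replicate 1 and 2 without wild-type replicate 2). Together that is 27.6%, where 10.1% of all genes were called. Ccr7, which guides naive cells to lymph nodes, held 517, 589, 521 and 621 in wild type and 874, 690.1, 796 and 847 in Morrbid-/-, a change of 0.51 (SE 0.08; adjusted p = 0.000168). Cxcr6, a receptor gene of tissue-homing T cells, went the other way with 126, 156, 153 and 162 in wild type and 84.3, 81.6, 68.3 and 83.0 in Morrbid-/- and -0.90 (SE 0.13; adjusted p = 3.76e-05). Cd44, low in these sorted cells, was at 11.8, 19.5, 26.9 and 14.6 in wild type and 36.7, 38.5, 40.4 and 21.0 in Morrbid-/- (0.89), with overlapping groups and a call lost without any of 6 single libraries. The adhesion genes Cd96 (-0.31) and Cd48 (-0.30) were lower, Cd96 not without 1 library and Cd48 not without any of 5.

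**Figure D3:**
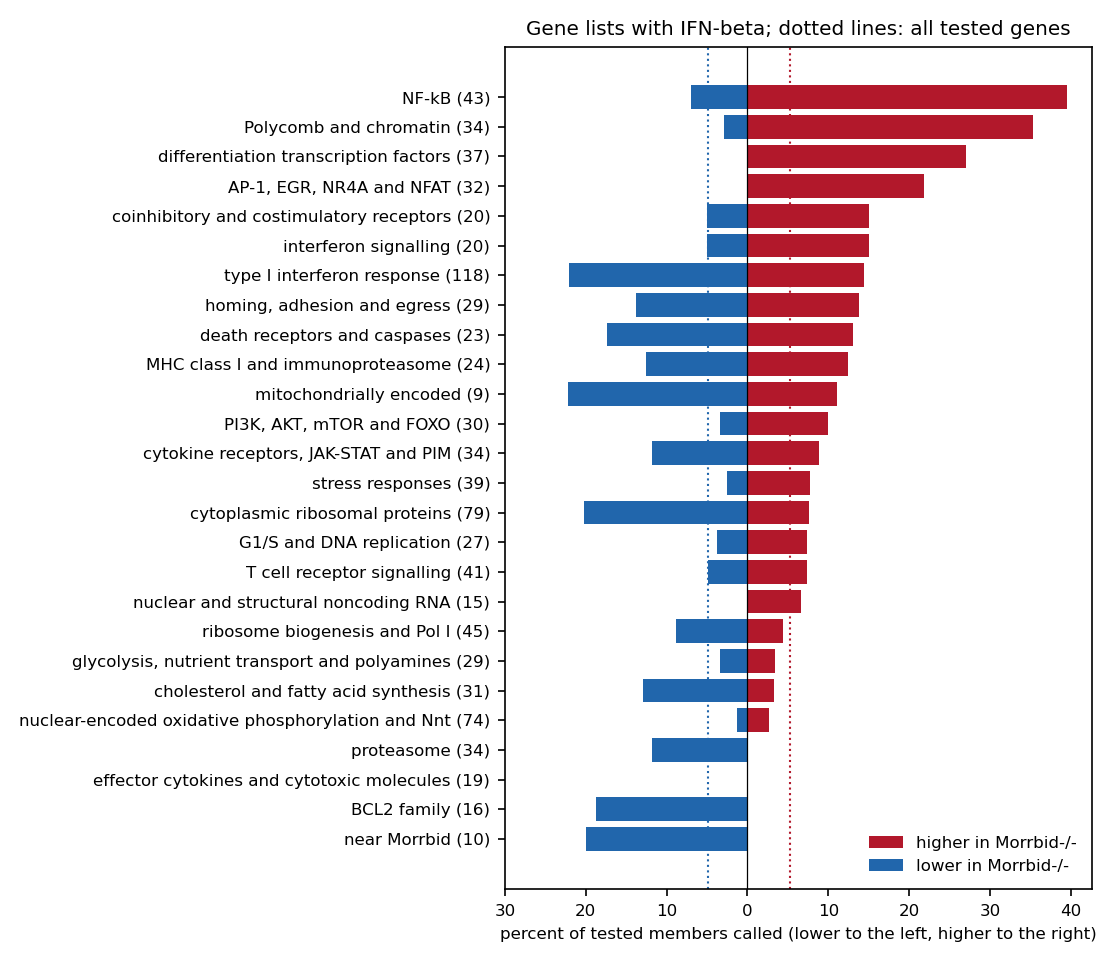
Bars give the percent of tested members of each gene list (number tested in brackets) that were called higher (red, to the right) or lower (blue, to the left) in Morrbid-/- with IFN-beta, and dotted lines give the 5.25% and 4.84% of all tested genes. NF-kB, chromatin, differentiation and AP-1 lists extend to the right, the interferon response extends both ways, and the BCL2 family and proteasome extend only to the left. All lists were written with earlier results of these data known. The dotted lines are over genes of all levels, and the called share grew with level.

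Genes of interferon signalling had 3 of 20 higher and 1 lower (0 without wild-type replicate 2 or 4 or Morrbid-/- replicate 1 or 3). That is 20% of the list, where 10.1% of all genes were called. Jak2 (chromosome 19, 29251803 to 29313095), a kinase gene of the type II interferon and other cytokine receptors, held 2849.6, 2968, 3104 and 2706 in wild type and 4276, 3967, 4251 and 4563 in Morrbid-/-, with a log2 change of 0.55 (SE 0.06; adjusted p = 9.93e-07) and no overlap. Irf7, a factor gene that amplifies the type I response, held 3992, 4374, 3974 and 4169 in wild type and 4689.8, 5054, 5071 and 5982 in Morrbid-/- and rose by 0.33 (SE 0.06; adjusted p = 0.00139). Irf2 went from 1830.1 ± 83.2 to 2126 ± 133 (0.21, lost without wild-type replicate 1 or Morrbid-/- replicate 2), and Irf1 from 3227 ± 141 to 2821 ± 115 (-0.19, lost without any of 4 single libraries). For the 5 feedback inhibitors tested, limma gave 0 calls (1 unadjusted p under 0.05, 0 by edgeR and 0 by DESeq2).

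The type I interferon response list was called in both directions, with 17 of 118 tested members higher (10 without Morrbid-/- replicate 2), 26 lower and 75 not called. That made 36.4% of the list, where 10.1% of all genes were called, and the median change was -0.06. At equal library totals the list had 20 higher and 20 lower members. The counts differed by role. Antiviral effectors had 10 of 55 higher and 9 lower, and the OAS and Mx genes 3 of 10 higher and 1 lower. Interferon-inducible GTPases had 2 of 17 higher and 9 lower. The pyrin-HIN cluster had 1 of 8 higher and 4 lower, Ifit and Ifitm genes 1 of 6 higher and 2 lower, and nucleic acid and pathogen sensors with their adaptors 1 of 12 called, lower. Limma called 0 of 7 PARP genes (2 with an unadjusted p under 0.05, 0 by edgeR and 1 by DESeq2) and 0 of 3 chemokine genes (2 with an unadjusted p under 0.05, 0 by edgeR and 0 by DESeq2).

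Guanylate-binding proteins and immunity-related GTPases attack membranes around intracellular pathogens. Gbp2 (chromosome 3, 142620663 to 142638008) held 41437, 41060.0, 40359 and 42032 in wild type and 31362, 32798, 32304 and 31148 in Morrbid-/-, a log2 change of -0.37 (SE 0.05; adjusted p = 2.8e-05). Gbp4 held 19457, 20079, 20893 and 19909 in wild type and 15561, 16781, 15423 and 15518 in Morrbid-/-, a change of -0.34 (SE 0.05; adjusted p = 7.7e-05), and Gbp7 went from 16366 ± 347 to 13099 ± 179 (-0.32, SE 0.05; adjusted p = 9.09e-05). The replicates of these genes were close to one another, and the genotypes did not overlap. Gbp11, annotated as a transcribed pseudogene, held 1470.3, 1543, 1683 and 1494 in wild type and 994, 1076, 1065 and 984 in Morrbid-/-, with -0.59 (SE 0.06; adjusted p = 1.3e-06). Tgtp2, of the immunity-related GTPases, went from 7651 ± 597 to 5817 ± 140.1 (-0.39, SE 0.06; adjusted p = 6.04e-05). Iigp1, from the same family, was an exception. It held 7501, 8569, 8449.8 and 8741 in wild type and 11680.0, 11138, 10832 and 10846 in Morrbid-/- and rose by 0.42 (SE 0.06; adjusted p = 1.83e-05). Members of these families share long stretches of sequence, and the counting of reads shared by near-identical genes is not stated, which makes the values of single members uncertain.

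Pydc3 (chromosome 1, 173673628 to 173698393), a pyrin-domain gene of the interferon-inducible pyrin-HIN cluster on chromosome 1, had the smallest p of all 9964 tested genes. It held 15439, 15181, 15853 and 16081 in wild type and 3741, 3970.2, 4242 and 4133 in Morrbid-/-, so that Morrbid-/- stood at 0.257 of the wild-type level, a log2 change of -1.96 (SE 0.05; adjusted p = 1.76e-18). Its cluster neighbour Mnda was called in the other direction (0.54), and near-identical copies make the members of this cluster uncertain too.

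Antiviral effectors that rose included small secreted and surface proteins. Isg15 (chromosome 4, 156199424 to 156200818), a ubiquitin-like modifier gene, held 160.5, 159.7, 139 and 171 in wild type and 268, 247, 207 and 263 in Morrbid-/-, a change of 0.64 (SE 0.11; adjusted p = 0.000272). Ube2l6, the gene of the enzyme that loads ISG15 onto its targets, went from 320.1 ± 67.9 to 518 ± 51.6 (0.71, SE 0.11; adjusted p = 0.000175). Other genes of this conjugation pathway were not called higher: the activating enzyme gene Uba7 was lower (-0.29, SE 0.06; adjusted p = 0.00287), and the ligase gene Herc6 (-0.11) and the deconjugating protease gene Usp18 (0.05) were not called. Ifi44, an interferon-induced gene of the antiviral response, held 366, 446, 496 and 447 in wild type and 791, 668, 901 and 871 in Morrbid-/-, with 0.88 (SE 0.09; adjusted p = 1.3e-06). Ly6a, the gene of the surface protein Sca-1, held 635, 596, 524 and 597 in wild type and 1051, 864, 1021 and 911 in Morrbid-/- and rose by 0.71 (SE 0.08; adjusted p = 1.39e-06). Its neighbour Ly6c2 held 68.4, 46.1, 59.6 and 55.7 in wild type and 111, 89.8, 141 and 128 in Morrbid-/-, with 1.01 (SE 0.16; adjusted p = 0.000136). Ly6a and Ly6c2 also belong to the memory-phenotype markers, 3 of whose 7 tested members were higher, where 5.25% of all genes were. The part of such cells in the result was not tested.

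**Figure D4:**
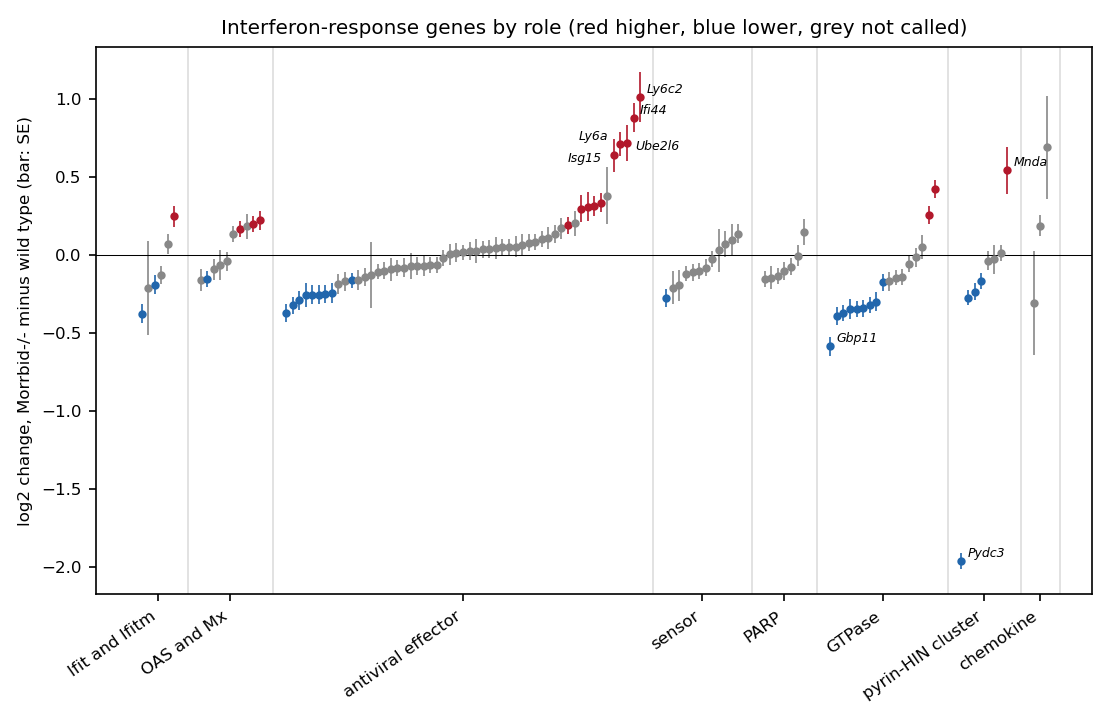
Each point is the log2 change (Morrbid-/- minus wild type, with IFN-beta) of 1 of the 118 tested genes of the interferon-response list, with its standard error as a bar, sorted within roles along the x axis. Red genes were called higher (17), blue genes lower (26) and grey genes not called (75). The GTPases lie mostly below 0, antiviral effectors on both sides, and Pydc3 apart from its cluster.

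Promoters of Isg15, which rose, and of Pydc3 and Gbp2, which fell, are shown because each carries an interferon-stimulated response element, although they went in opposite directions. The motif searched was GAAA, then any 2 bases, then GAAA, on both strands, found in 3.49% of the 27025 promoters. Matches of the motif overlapped a kappaB match in 5 of those promoters. Capitals mark it as above.
Isg15 (chr4:156200819-156201068, minus strand): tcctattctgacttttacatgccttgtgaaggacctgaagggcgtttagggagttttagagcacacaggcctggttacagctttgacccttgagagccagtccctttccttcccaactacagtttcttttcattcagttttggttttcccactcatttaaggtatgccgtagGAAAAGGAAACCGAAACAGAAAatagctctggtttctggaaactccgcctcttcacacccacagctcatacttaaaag
Pydc3 (chr1:173673415-173673664, plus strand): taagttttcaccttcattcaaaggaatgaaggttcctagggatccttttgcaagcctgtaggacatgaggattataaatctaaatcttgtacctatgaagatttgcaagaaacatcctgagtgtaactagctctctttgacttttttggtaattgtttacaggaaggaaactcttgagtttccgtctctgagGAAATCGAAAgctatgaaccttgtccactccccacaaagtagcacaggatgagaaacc
Gbp2 (chr3:142620413-142620662, plus strand): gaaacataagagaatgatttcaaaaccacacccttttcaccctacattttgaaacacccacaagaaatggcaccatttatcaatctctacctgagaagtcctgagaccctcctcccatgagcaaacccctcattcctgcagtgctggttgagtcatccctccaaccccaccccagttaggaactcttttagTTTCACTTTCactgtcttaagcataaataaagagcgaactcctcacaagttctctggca
Isg15 held 3 overlapping matches, the first 78 bases before the start. Pydc3 held 1 match at 58 bases, on the strand of the gene, and Gbp2 held 1 at 59 bases, on the opposite strand. The start of Pydc3 in the promoter table lies inside the span of the gene given above. Gbp2 also held 1 match of the kappaB motif, which is not marked. Of the 118 tested members 87 had a promoter in the table, again under 80%, so no count over the list is given.

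The list of MHC class I genes and the machinery that supplies their peptides held 24 tested members and gave 3 higher and 3 lower (1 without wild-type replicate 2 or Morrbid-/- replicate 2, 3 or 4), and 6 higher and 1 lower after rescaling to equal totals. The higher genes were all class I heavy chains, 3 of 11. The called share of the list was 25%, where 10.1% of all genes were called. H2-Q6 held 2802, 2935, 2901 and 2947 in wild type and 3696, 4104, 3997 and 4001 in Morrbid-/-, a change of 0.45 (SE 0.05; adjusted p = 5.34e-06). H2-Q7 held 4693, 4893, 4509 and 5101 in wild type and 5897, 6192, 6366 and 6344 in Morrbid-/- (0.37, SE 0.05; adjusted p = 6.04e-05), and the classical H2-K1 went from 6398 ± 233 to 7446 ± 369.5 (0.22, SE 0.05; adjusted p = 0.00899). H2-Q6 and H2-Q7 are near-identical copies, so their values are uncertain singly. The lower genes were in peptide supply. Erap1, the peptide-trimming enzyme gene of the endoplasmic reticulum, held 2006, 1865, 1972 and 1844 in wild type and 1561, 1406, 1466 and 1431 in Morrbid-/- and fell (-0.39, SE 0.06; adjusted p = 8.01e-05). The peptide transporter gene Tap1 (-0.18) and the proteasome activator gene Psme2 (-0.20) were also called, but each was lost without several single libraries, 5 and 7 in number.

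Chromatin regulators were higher in Morrbid-/- where they were called, with 1 exception. Of 34 tested, 12 were higher and 1 lower (2 without Morrbid-/- replicate 1), or 38.2% of the list. Of all genes 10.1% were called, and 26.2% of those with a mean above 1000, where Chd4 and Kmt2a lie. The median change of the list was 0.12. The Polycomb repressive complex 2 and its partners had 2 of 9 higher, one of them Phf1, which tethers the complex to marked histones and held 67.3, 71.7, 78.2 and 86.9 in wild type and 119, 119, 154 and 128 in Morrbid-/- (0.76, SE 0.13; adjusted p = 0.000434). Outside it, 10 of 25 were higher. Chd4 (chromosome 6, 125095980 to 125130591), the ATPase gene of the NuRD remodelling complex, held 2585, 2673, 2644 and 2405 in wild type and 3639.7, 4267, 3728 and 4248 in Morrbid-/-, a change of 0.62 (SE 0.06; adjusted p = 4.56e-07). Kmt2a, a histone H3 lysine methyltransferase gene, held 8326, 8835, 9256 and 8275 in wild type and 11139, 12052, 11343 and 11590.0 in Morrbid-/- (0.41, SE 0.05; adjusted p = 1.4e-05). Subunits of the SWI/SNF remodeller rose as well, Arid1a from 1809 ± 130.0 to 2377 ± 42.2 (0.40, SE 0.06; adjusted p = 7.92e-05) and Smarca4 from 876 ± 43.2 to 1118 ± 82.8 (0.35, SE 0.07; adjusted p = 0.00131). Tet3, a DNA demethylase gene, was the exception at 739, 852, 862 and 852 in wild type and 579, 609, 604 and 583 in Morrbid-/- (-0.47, SE 0.07; adjusted p = 6.64e-05).

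Growth and metabolic lists were called in shares of 6.9% to 16.1%, around the 10.1% of all genes. Among glycolysis, nutrient transport and polyamine genes, 1 of 29 was higher and 1 lower (0 without any of 5 single libraries), or 6.9%. The higher one was Odc1, the rate-limiting enzyme gene of polyamine synthesis. It held 601, 567, 655 and 577 in wild type and 1155, 1044, 891 and 997 in Morrbid-/-, a change of 0.76 (SE 0.08; adjusted p = 5.17e-07), well beyond the spread of either group. Cholesterol and fatty acid genes had 1 of 31 higher (0 without any of 4 single libraries) and 4 lower (2 without any of 6), or 16.1% of the list. Elovl6, a fatty acid elongase gene, held 204, 318, 269.8 and 240.2 in wild type and 165, 160.4, 155 and 128 in Morrbid-/- (-0.75, SE 0.12; adjusted p = 0.000197), and it alone of the 4 passed without each single library. PI3K, AKT, mTOR and FOXO genes had 3 of 30 higher (1 without any of 5 single libraries) and 1 lower (0 without any of 3), or 13.3%, with Sesn3, for a stress-induced sestrin, going from 845 ± 75.7 to 1079.8 ± 70.6 (0.36, SE 0.07; adjusted p = 0.00215). G1/S and replication genes had 2 of 27 higher (1 without any of 5 single libraries) and 1 lower (0 without any of 6), or 11.1%, with the replicative helicase gene Mcm4 going from 483 ± 16.3 to 596 ± 31.2 (0.30, SE 0.07; adjusted p = 0.00692).

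Genes of the machinery that makes and degrades proteins came in 3 lists. Cytoplasmic ribosomal proteins had 6 of 79 higher (3 without wild-type replicate 3 and 15 without wild-type replicate 4). Another 16 were lower (25 without wild-type replicate 3). Together that is 27.8%, where 10.1% of all genes were called and 26.2% of those with a mean above 1000. Rps14 held 4063, 3608, 3437 and 3310.1 in wild type and 2414, 2215, 2432 and 2688 in Morrbid-/-, a change of -0.56 (SE 0.07; adjusted p = 4.75e-06). Others such as Rplp2, from 2529.5 ± 287 to 3441 ± 504 (0.44, SE 0.08; adjusted p = 0.000997), were higher. Ribosomal protein genes have many processed copies, so their counts are uncertain. Ribosome biogenesis had 2 of 45 higher (1 without Morrbid-/- replicate 2) and 4 lower (2 without wild-type replicate 1 or Morrbid-/- replicate 2 or 3), or 13.3%. Ubtf, a factor gene of RNA polymerase I, held 111, 138, 109 and 149 in wild type and 176, 175, 197 and 222 in Morrbid-/- (0.60, SE 0.12; adjusted p = 0.00201), while Wdr12, of large subunit maturation, went from 249 ± 19.6 to 187 ± 7.84 (-0.41, SE 0.09; adjusted p = 0.00635). The proteasome had 4 of 34 called, all lower (2 without wild-type replicate 1 or 4 and 1 without Morrbid-/- replicate 2 or 3). That is 11.8%, near the 10.1% of all genes. Psma5, of the 20S core, had the smallest p of them, with 333, 332, 321 and 308 in wild type and 191, 171, 267 and 212 in Morrbid-/- (-0.64, SE 0.11; adjusted p = 0.000345).

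Stress genes gave 3 of 39 higher and 1 lower (0 without wild-type replicate 1 or Morrbid-/- replicate 2 or 4, and 2 without wild-type replicate 4), a share of 10.3% close to that of all genes. Ppp1r15a, the gene of GADD34, which restores translation after stress, held 299.7, 287, 294 and 254 in wild type and 414, 470.2, 370.2 and 473 in Morrbid-/- (0.60, SE 0.09; adjusted p = 9.09e-05). Hsp90ab1, a constitutive chaperone gene, held 5526, 5929, 5436 and 5557 in wild type and 7076, 7751, 7154 and 8027 in Morrbid-/-, a change of 0.42 (SE 0.05; adjusted p = 1.83e-05). Nuclear-encoded oxidative phosphorylation genes were nearly all uncalled, with 2 of 74 higher (1 without wild-type replicate 2 or Morrbid-/- replicate 2 or 3) and 1 lower (0 without wild-type replicate 2 or Morrbid-/- replicate 2, and 2 without Morrbid-/- replicate 4), 4.05% in all. Nnt, the mitochondrial transhydrogenase gene added to that list and one whose structure differs between C57BL/6 substrains, held 42.5, 53.2, 40.9 and 27.3 in wild type and 78.8, 83.4, 81.8 and 78.5 in Morrbid-/- (1.00, SE 0.18; adjusted p = 0.000677). The labels name no substrain.

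Mitochondrially encoded genes had 1 of 9 higher (0 to 2 without single libraries) and 2 lower (1 without wild-type replicate 1, 2 or 3 or Morrbid-/- replicate 2). That is 33.3% of a short list, where 10.1% of all genes were called. ND3, a small subunit gene of complex I, had 23, 21, 19 and 21 reads in wild type and 0 reads in all 4 Morrbid-/- libraries. With a floor of 3 reads over the group it was at least 33.2-fold lower in Morrbid-/-, and its value is far outside the spread of the wild-type libraries. COX1, of complex IV, held 67730.0, 62211, 62907 and 71117 in wild type and 55717, 50950.0, 53803 and 61623 in Morrbid-/- (-0.25, lost without Morrbid-/- replicate 2 and at 0 after quantile normalization). Nuclear and structural noncoding RNAs had 1 of 15 called (6.67%, below the 10.1% of all genes). It was Rmrp, higher (0.59), not called by edgeR or DESeq2 nor without any of 5 single libraries. Of 4 Y-linked genes tested, 2 were called, both lower (1 without wild-type replicate 1 or Morrbid-/- replicate 1 or 2), Uty from 628 ± 48.1 to 514 ± 13.9 (-0.29) and Eif2s3y from 818 ± 40.1 to 675 ± 61.8 (-0.28). That is 50% of so few genes, where 10.1% of all genes were called and 4.84% lower.

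Genes outside the lists were named by the size of their change. Rhob, a small GTPase gene of endosomes and the cytoskeleton, held 46.0, 29.7, 28.0 and 28.3 in wild type and 81.6, 77.9, 81.8 and 88.5 in Morrbid-/-, a change of 1.32 (SE 0.18; adjusted p = 2.64e-05). Rnf157, for a ubiquitin ligase, held 319, 587, 213 and 439 in wild type and 1129.8, 1016, 540.1 and 915 in Morrbid-/- (1.25, SE 0.21; adjusted p = 0.000273), and its highest wild-type library overlapped the lowest of Morrbid-/-. Ptms, the gene of parathymosin, held 259.6, 251, 181 and 165 in wild type and 405, 462, 399.9 and 479.8 in Morrbid-/- (1.05, SE 0.12; adjusted p = 2.89e-06), and Marcksl1, for an actin-binding protein, held 63.7, 46.1, 47.9 and 43.0 in wild type and 95.3, 140.2, 95.3 and 118 in Morrbid-/- (1.14, SE 0.16; adjusted p = 4.69e-05). Wdfy1, for an endosomal adaptor, went from 129 ± 25.2 to 245 ± 29.5 (0.93), Cdk5rap1, for a mitochondrial tRNA-modifying enzyme, from 74.7 ± 13.1 to 162 ± 30.1 (1.10), Fam129a from 60.8 ± 13.5 to 118 ± 12.3 (0.96), Ubald2 from 238 ± 54.0 to 447 ± 106 (0.91) and the pseudogene Tmem181b-ps from 51.9 ± 14.1 to 113 ± 12.3 (1.14).

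On the lower side, Ide (chromosome 19, 37268743 to 37334544), the insulin-degrading enzyme gene, held 632, 686, 596 and 631 in wild type and 269, 276, 325 and 267 in Morrbid-/-, a change of -1.16 (SE 0.08; adjusted p = 1.63e-09). Rell1, for a protein of the RELT family, held 95.6, 101, 117 and 95.7 in wild type and 26.6, 35.7, 17.1 and 30.1 in Morrbid-/- (-1.91, SE 0.19; adjusted p = 6.18e-07). Mcoln2, a cation channel gene of endosomes and lysosomes, held 76.7, 67.6, 114 and 92.8 in wild type and 21.1, 34.8, 25.2 and 32.8 in Morrbid-/- (-1.59, SE 0.20; adjusted p = 1.01e-05). Groups in each of these lay far apart relative to their spread. Gpr34, a lysophosphatidylserine receptor gene, held 101, 105, 84.1 and 138 in wild type and 45.8, 36.7, 32.4 and 56.6 in Morrbid-/- (-1.31, SE 0.18; adjusted p = 3.14e-05), and Ctla2a, for a cysteine protease inhibitor, held 194, 208, 142 and 231 in wild type and 115, 75.2, 80.0 and 69.3 in Morrbid-/- (-1.19, SE 0.15; adjusted p = 1.56e-05). Slc30a4, a zinc exporter gene, held 398, 334, 327 and 311 in wild type and 216, 203, 193 and 138 in Morrbid-/- (-0.88, SE 0.12; adjusted p = 2.37e-05), and Arrb1, which encodes beta-arrestin 1, held 83.8, 104, 67.7 and 89.8 in wild type and 40.3, 53.2, 48.5 and 49.3 in Morrbid-/- (-0.83, SE 0.16; adjusted p = 0.00156). Abcg3 (-1.07), Ppic (-0.94), Tspan13 (-0.84), Scoc (-0.76) and the ribosomal protein gene Rpl22 (-0.79) were also lower without overlap between genotypes.

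Erdr1, annotated as a transcribed pseudogene on the X chromosome, had 74, 61, 77 and 161 reads in wild type and 1, 0, 1 and 4 in Morrbid-/-. The ratio of normalized reads was 0.0136 with an exact 95% counting interval of 0.00495 to 0.0298, which covers counting error only. Its fitted log2 change of -5.55 depends on the pseudocount. Among abundant genes, the tetraspanin gene Cd53 held 10274, 9385, 9891 and 8821 in wild type and 7528, 6745, 7389 and 7033 in Morrbid-/- (-0.42, SE 0.06; adjusted p = 2.5e-05), Ncoa7, for a nuclear receptor coactivator, 6731, 6349.7, 6653 and 5750.2 in wild type and 4761, 4782, 4802 and 4748 in Morrbid-/- (-0.41, SE 0.06; adjusted p = 2.14e-05), and Eif3e, of translation initiation, 2610.1, 2222, 2269 and 2379.6 in wild type and 1744, 1591, 1551 and 1824 in Morrbid-/- (-0.50, SE 0.07; adjusted p = 1.74e-05). In these 3 the genotypes did not overlap.

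Some called genes lay side by side on their chromosomes. Of 184 called genes that changed over 1.5-fold and had a position in GRCm38.p6, 24 stood next to another such gene, in 11 runs. Whether that is more than their number alone would give was not tested. Examples of adjacent genes that were higher together were Casp1 and Casp4 on chromosome 9, Ly6a and Ly6c2 on chromosome 15, Lag3 and Ptms on chromosome 6, and Foxj1, Rnf157 and Ubald2 on chromosome 11. The spans of the genes named in these runs do not overlap in the annotation. Other runs were lower together. They were Mid1 (-1.30) and Erdr1 (-5.55) on the X chromosome and Fbxo48 (-0.70) and Plek (-0.68) on chromosome 11. On chromosome 9 they were Gm10684 (-1.49) and Il10ra (-0.62). The run with the largest rises, chosen after its values were seen, was of 3 genes on chromosome 18, Gm4951 (1.87), Gm4841 (2.12) and F830016B08Rik (2.63), which belong to the interferon-inducible GTPases but not to the list above. All 3 were higher in Morrbid-/- without overlap, against the direction of most called GTPases of that list. F830016B08Rik went from 8.68 ± 4.24 to 55.8 ± 11.2, Gm4841 from 20.5 ± 8.84 to 86.3 ± 7.10 and Gm4951 from 99.8 ± 18.6 to 364 ± 51.9. By chromosome, the share of genes called ran from 5.95% on chromosome 8 to 13.6% on chromosome 18, with 7.43% on chromosome 2, which holds Morrbid. On the X chromosome 4 genes were higher and 24 lower of 305, with a median log2 change of -0.07, and on chromosome 17 there were 48 higher and 16 lower of 524.

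The genotype effect with IFN-beta was set against that without it, each within its own table. Of the 949 called genes that were also tested without IFN-beta, 26 were called there too, of the 59 called in that setting (0.635% of its genes), and 12 of the 26 had the same direction. Ide and Rell1 were lower in both settings: without IFN-beta their log2 changes were -0.95 and -1.85, and the difference between settings did not pass in either (for Ide -0.21, adjusted p = 0.53 and for Rell1 -0.06, adjusted p = 0.965). Tmem181b-ps was higher in both (1.20 without). Erdr1 was lower in both, at -2.13 without IFN-beta (limma adjusted p = 4.16e-08), and its difference between settings was called as well. The test of the difference itself called 121 of 9078 genes (1.33%), 40 with a more positive and 81 with a more negative effect in the presence of IFN-beta, and 81 genes were called both for the difference and within the IFN-beta libraries. The libraries without IFN-beta were shallower, at 1747634 to 2963149 recovered reads.

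Interferon-inducible GTPases were among the genes with negative differences. Gbp2 was higher in Morrbid-/- without IFN-beta (1.81) and lower with it (-0.37), a difference of -2.18, adjusted p = 1.79e-11. Iigp1 was higher in both, by 2.39 without and 0.42 with IFN-beta, a difference of -1.97, adjusted p = 9.27e-11. The wild-type mean of Gbp2 was 189.9 ± 33.4 (SD, n = 3) without IFN-beta and 41222 ± 701 (SD, n = 4) with it, on separately normalized scales that were not tested against each other. The same contrast was seen in Gbp4 (1.18 against -0.34), Gbp7 (1.15 against -0.32) and Tgtp2 (0.92 against -0.39), each with a called difference. Ly6a changed by 3.24 without and 0.71 with IFN-beta (-2.54, adjusted p = 5.66e-05). Pydc3, by contrast, changed by -0.44 without, not called there, and its difference was -1.52, adjusted p = 1.52e-08.

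Differences were also called for genes whose effect was not called without IFN-beta. Chd4 changed by 0.01 without IFN-beta and 0.62 with it (0.61, adjusted p = 0.000761), Hivep1 by 0.13 and 0.63 (0.51, adjusted p = 0.00775), and Odc1 by 0.20 and 0.76 (0.56, adjusted p = 0.0321). Tcf7 and Lef1 showed -0.11 and -0.08 without IFN-beta, with differences of 0.52, adjusted p = 0.0102 and 0.60, adjusted p = 0.01. The effect on Tnfsf8 was 0.22 without and -0.57 with IFN-beta (-0.79, adjusted p = 0.000466), and that on Cxcr6 0.11 and -0.90 (-1.01, adjusted p = 0.0282). For the NF-kB genes Rela (0.56, adjusted p = 0.0684), Tnfaip3 (0.37, adjusted p = 0.111) and Nfkb1 (0.26, adjusted p = 0.279) the difference did not pass, nor for Bcl2l11 (-0.33, adjusted p = 0.44) and Bcl2 (-0.44, adjusted p = 0.134), which does not show that these effects are alike in both settings.

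**Figure D5:**
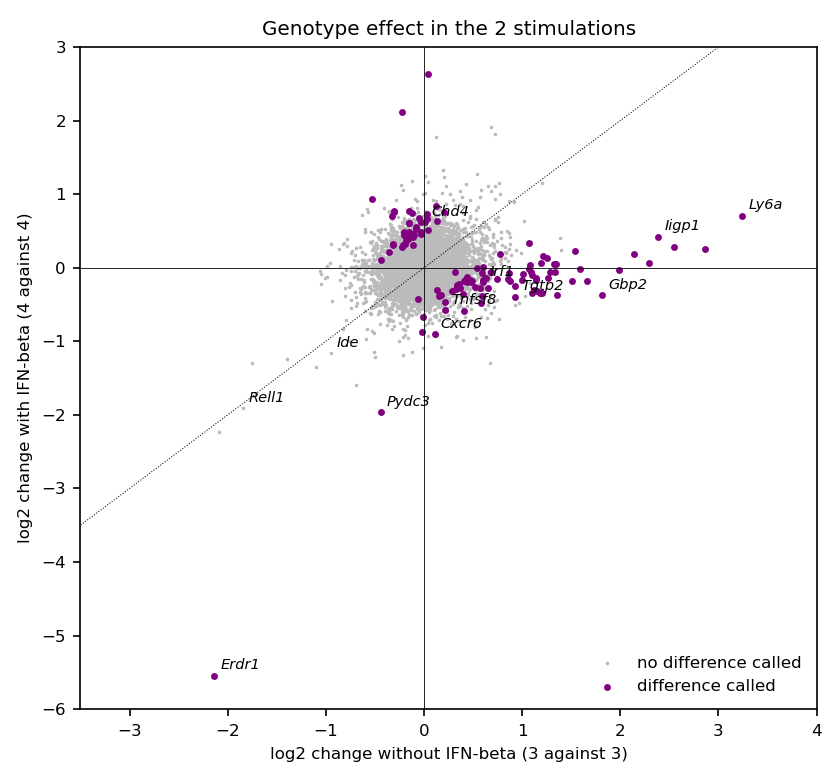
Each point is 1 of 9078 genes tested in both settings, with its log2 change (Morrbid-/- minus wild type) without IFN-beta on the x axis (3 against 3 libraries) and with IFN-beta on the y axis (4 against 4). Purple points are the 121 genes whose difference was called, grey points the rest, and the dotted line marks equal effects. Gbp2, Tgtp2, Iigp1 and Ly6a lie to the right at low heights, while Ide and Rell1 lie near the line.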

How the data were processed

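RNA of 100 ng per sample was made into stranded total RNA libraries and read as paired ends of 75 bases, per the labels. Among tools and builds, the submitters' processing notes list featureCounts, STAR 2.5, Trimmomatic, DESeq2 and GRCm38, with no roles. No source used here gives the annotation, strand setting or filters. The authors deposited a signal per gene, which is a count divided by a size factor, in 1 table per stimulation. The tables were normalized separately, so each genotype difference was taken within its own table. Whole reads were recovered from the steps of these values (100% whole within 0.01).

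Genes with a mean deposited signal of at least 10 over the 8 libraries were tested as log2(value + 1) with limma 3.58.1 (trend; R 4.3.3) and Benjamini-Hochberg adjustment over all tested genes. The log2 changes are on that scale and understate those of low genes. The difference between stimulations was a contrast over 14 libraries. Alternatives were edgeR 4.0.16 and DESeq2 1.42.0 on recovered reads, other pseudocounts, filters and scalings, limma without trend, and each library left out. The table of 12843 genes held 138 rows without a symbol and 17 symbols turned into dates, which took their names from RefSeq by Entrez ID where these matched.

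Genes named were up to 15 called genes per direction with the largest change and a mean of at least 50, up to 5 more per direction with a mean of at least 2000, the genes near Morrbid, up to 6 called members of each list per direction (or the 2 with the smallest p), and up to 3 promoters per direction in the NF-kB and interferon lists. Markers of other cells were summed. Ighm, Ikzf2, Mnda, Zbtb46, Foxj1, Uba7, Herc6, Usp18, Gm4951, Gm4841, F830016B08Rik, Mid1, Fbxo48, Gm10684 and other marker genes outside that rule were named after their values were seen. A few genes that the rule names are not reported here. The members and lists were chosen with earlier results of these data known. Gene positions, promoters and motif shares come from RefSeq on GRCm38.p6, in which 12369 genes of the table had a position. Intervals and floors cover counting error only.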

Additional observations from a re-analysis of the deposited data

Results flagged for a closer look

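Single libraries stood apart from the other 3 of their group in 16 of 326 groups of 4 that were looked at (gap over range above Dixon's 95% critical value), where chance alone flags about 1 in 20. The 326 groups are 163 genes named by the rule, in each genotype. In wild type, 1 library was high in Rhob (46.0), Rmrp (531), Socs5 (243) and Zc3h6 (412) and low in Casp4 (30.7) and Tet3 (739), with the deposited normalized count of that library in brackets. In Morrbid-/-, 1 library was high in Gbp4 (16781), Icam1 (1486), Ide (325), Map3k14 (597), Scoc (80.0) and Stat4 (2130.1) and low in Cxcr6 (68.3), Ppic (73.7), Sesn3 (974) and Slc20a1 (519). Cxcr6 sits at the threshold. Morrbid-/- replicate 3 was the library apart in 6 of the 10 genes of that genotype, Ide, Ppic, Scoc, Cxcr6, Sesn3 and Slc20a1.

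The genotype effect differed between the stimulations in 26 of 153 named genes tested for it, by the limma contrast with Benjamini-Hochberg adjustment over all 9078 genes. Among all 9078 genes it was 121 (1.33%). Named genes were mostly chosen by their call with IFN-beta, and the same values enter the contrast, so these shares cannot be compared. The values are the log2 effect with IFN-beta minus that without. Interferon-response genes and their partners in antigen processing were among the negative ones. They were Erap1 -0.54 (adjusted p = 0.00377), Gbp2 -2.18 (adjusted p = 1.79e-11), Gbp4 -1.53 (adjusted p = 2.2e-08), Gbp7 -1.47 (adjusted p = 3.81e-09), Iigp1 -1.97 (adjusted p = 9.27e-11), Irf1 -0.79 (adjusted p = 1.07e-05), Ly6a -2.54 (adjusted p = 5.66e-05), Psme2 -0.64 (adjusted p = 0.00279), Pydc3 -1.52 (adjusted p = 1.52e-08), Tap1 -0.59 (adjusted p = 0.00266) and Tgtp2 -1.32 (adjusted p = 2.65e-07). Other negative differences were Casp8 -0.44 (adjusted p = 0.0125), Cxcr6 -1.01 (adjusted p = 0.0282), Erdr1 -3.41 (adjusted p = 8.88e-05), Slc30a4 -0.85 (adjusted p = 0.0287) and Tnfsf8 -0.79 (adjusted p = 0.000466). Positive differences among regulators and receptors were Chd4 0.61 (adjusted p = 0.000761), Hivep1 0.51 (adjusted p = 0.00775), Lef1 0.60 (adjusted p = 0.01), Phf1 0.92 (adjusted p = 0.0131), Tcf7 0.52 (adjusted p = 0.0102) and Tgfbr2 0.41 (adjusted p = 0.0447). The remaining ones were Cdkn1b 0.64 (adjusted p = 0.042), Odc1 0.56 (adjusted p = 0.0321), Rplp2 0.65 (adjusted p = 0.0161) and Ubtf 0.76 (adjusted p = 0.0217). Within the IFN-beta libraries the calls of Irf1, Tap1, Psme2 and Cdkn1b were lost without several single libraries, and Erdr1 rests on few reads in Morrbid-/-. Without IFN-beta, Ly6a was near the floor in wild type (mean 2.29), and Erdr1 was lower in Morrbid-/- as well (-2.13).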

How the results depend on the processing

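Counts of called genes with IFN-beta were 523 higher and 482 lower with limma. They were 522 and 481 with a pseudocount of 0.5, 525 and 485 with 5, 505 and 457 with no filter, 514 and 482 with a mean of at least 50, 470 and 457 after quantile normalization, 511 and 500 with edgeR (987 calls shared) and 482 and 474 with DESeq2 (927 shared). After rescaling to equal totals they were 730 and 344 (867 shared), which moved the share of higher calls from 52% to 68%. Without the limma trend they were 171 and 134, and the difference between stimulations was called in 66 genes instead of 121. Leaving out single libraries gave 321 to 555 higher, 288 to 466 lower and 97 to 143 differences. Same-numbered libraries correlated at 0.0707, 0.0298, 0.127 and 0.242. For Morrbid-/- replicates 2, 3 and 4 the same-numbered library was the best match. Morrbid-/- replicate 1 correlated best with wild-type replicate 3 (0.0848). The main fit did not take the numbers as pairs, and whether same-numbered libraries shared a batch was not tested. With the replicate number as a block there were 730 higher and 691 lower genes, which include all 1005 calls, and 311 differences. COX1, which had the same rank in all libraries, went from -0.25 to 0.00 (adjusted p = 1) after quantile normalization, and the alternative itself fixes that value. Of 155 called genes named, 78 kept their call in every alternative and 103 without each single library. The trend alone cost 75 calls, equal totals 17, quantile normalization 15, no filter 9, DESeq2 8, edgeR 4 and single libraries 16 to 40. Of 54 counts over lists, 48 moved over 1.5 times in some alternative, 39 of them without the trend, 19 with the block and 14 at equal totals. Apart from COX1 and quantile normalization, where a value moved its cause was not tested. Of genes with a mean of 10 to 50, 3.05% were called, against 26.2% above 1000, and the part of depth was not tested.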
